A study of Mus musculus with 72 samples.

Results

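Guanylate-binding proteins (GBPs) and 3 genes that accompany them in the response to interferon-gamma were followed through tumors, spleens and tumor-draining lymph nodes. The 9 genes were taken by symbol from the 16835 genes of the expression table, and every symbol was found. They are the GBPs GBP2, GBP3, GBP4, GBP5, GBP6 and GBP7, the interleukin 18 inhibitor IL18BP, the ubiquitin-like modifier UBD and the transcription factor BATF2. The 72 libraries are polyadenylated RNA of BALB/c mice that all carried tumors of CT26, a colon carcinoma line of the same strain. The mice fall into 6 arms: the control, labelled Isotype, the single arms PD1 and CYTO, the pairs TS/CYTO and PD1/CYTO, and the triple arm TS/PD1/CYTO. The labels do not spell out CYTO and TS. Nodes were taken at day 16 and, with spleens and tumors, at day 23, with 3 mice in each of the 24 groups. Within each arm, day 16 and day 23 nodes carry different mouse numbers, day 23 spleens and nodes from the same 18 mice, and 14 of those mice also gave a tumor.

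GBPs are large GTPases that cells make in quantity after contact with interferon-gamma, a cytokine of T cells and natural killer cells. Its receptor acts through the kinases JAK1 and JAK2, and genes it induces often carry gamma-activated sites (GAS), while IRF1 and related factors bind interferon-stimulated response elements (ISRE). GBPs coat the membranes around intracellular pathogens and promote inflammasome activity, whose product interleukin 18 is neutralised by IL18BP. UBD, also called FAT10, marks proteins for the proteasome and is known from mature dendritic cells and lymphoid organs. BATF2 is a basic leucine zipper factor of activated macrophages that can pair with IRF1.

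The 9 genes lie on 5 mouse chromosomes. In GRCm38 (mm10), with the GENCODE M21 annotation, Gbp5 (chr3:142493978-142522344), Gbp7 (chr3:142530342-142550149), Gbp3 (chr3:142560026-142573209) and Gbp2 (chr3:142620602-142638008) follow each other on the plus strand of chromosome 3, with Gbp2b, which is not analysed here, before Gbp2. Gbp4 (chr5:105115767-105139586) and Gbp6 (chr5:105270702-105293698) lie on the minus strand of chromosome 5. Il18bp (chr7:102014885-102018690, minus strand), Ubd (chr17:37193892-37196095, plus strand) and Batf2 (chr19:6140983-6172476, plus strand) are single. The annotated Gbp8 (chr5:105014150-105139540) spans the Gbp4 locus on the same strand, and the family is closely related in sequence. The split of reads between family members is therefore uncertain. Symbols in the table are in upper case and follow human naming in places (CD8B, IRGM), and genes were matched to the annotation by symbol.

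Promoter sequences are shown because GBP2, GBP3, GBP5 and GBP7 are neighbours in the genome. Their RNAs varied together between the tumors described below, but so did those of members on other chromosomes. Over 18 tumors GBP2 had r of 0.95 to 0.99 with GBP3, GBP5 and GBP7, and 0.98 with GBP4 and GBP6 on chromosome 5. Of the 9 genes, 6 have a window in the RefSeq table for GRCm38.p6, each running from 250 bases before to 50 bases after an annotated start site, and Gbp3 has 2 windows. GBP4, GBP6 and BATF2 are named only. Capitals mark matches to GAS, spelled TTCNNNGAA, and to the ISRE core, spelled GAAANNGAA, searched on both strands. Every ISRE core found lay on the minus strand, so that its capitals read as the reverse complement. Windows are given 5′ to 3′ on the plus strand for GBP2 (chr3:142620413-142620712), the first window of GBP3 (chr3:142559794-142560093), GBP5 (chr3:142496684-142496983), GBP7 (chr3:142530086-142530385) and, as a member without a match, UBD (chr17:37193642-37193941).
GBP2: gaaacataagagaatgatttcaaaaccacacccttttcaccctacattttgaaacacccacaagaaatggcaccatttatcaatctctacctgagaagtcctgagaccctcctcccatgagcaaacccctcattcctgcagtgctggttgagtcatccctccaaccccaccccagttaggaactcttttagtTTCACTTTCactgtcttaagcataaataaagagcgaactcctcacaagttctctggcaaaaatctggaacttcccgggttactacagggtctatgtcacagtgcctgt
GBP3: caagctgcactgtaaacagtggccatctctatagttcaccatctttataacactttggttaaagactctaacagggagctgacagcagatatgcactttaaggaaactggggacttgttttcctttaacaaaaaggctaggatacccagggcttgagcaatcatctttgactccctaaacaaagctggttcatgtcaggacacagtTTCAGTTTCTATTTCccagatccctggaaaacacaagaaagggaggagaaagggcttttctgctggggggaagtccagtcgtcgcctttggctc
GBP5: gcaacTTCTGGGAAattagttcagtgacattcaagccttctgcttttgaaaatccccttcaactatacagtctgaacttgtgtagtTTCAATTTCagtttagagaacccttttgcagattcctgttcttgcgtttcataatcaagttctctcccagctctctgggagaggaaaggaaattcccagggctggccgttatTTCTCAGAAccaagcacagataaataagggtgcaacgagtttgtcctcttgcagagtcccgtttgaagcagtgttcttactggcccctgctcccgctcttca
GBP7: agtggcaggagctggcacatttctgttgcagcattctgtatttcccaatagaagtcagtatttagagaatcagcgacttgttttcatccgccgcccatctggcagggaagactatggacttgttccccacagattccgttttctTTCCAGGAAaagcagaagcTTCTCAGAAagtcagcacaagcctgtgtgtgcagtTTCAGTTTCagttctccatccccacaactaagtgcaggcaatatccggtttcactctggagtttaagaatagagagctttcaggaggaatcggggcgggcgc
UBD: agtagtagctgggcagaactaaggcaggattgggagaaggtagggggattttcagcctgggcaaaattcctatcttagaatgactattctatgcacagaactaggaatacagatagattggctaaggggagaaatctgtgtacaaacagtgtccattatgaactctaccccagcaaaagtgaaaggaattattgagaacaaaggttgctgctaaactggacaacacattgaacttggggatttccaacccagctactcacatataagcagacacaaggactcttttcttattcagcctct
Counted from the start site, GBP2 held an ISRE core at -58. GBP3 held 2 ISRE cores, at -44 and -38, which overlap and are printed as 1 run of capitals. GBP5 held GAS at -245 and -52 and an ISRE core at -164. GBP7 held GAS at -106 and -87 and an ISRE core at -52. The windows of IL18BP and UBD and the second window of GBP3 held neither. Among all 32851 windows of the table, 8.3% held the GAS letters, 8.6% the ISRE core and 1.1% both. These matches describe letters and were not tested as binding sites.

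Values are log2(TPM + 1) as deposited, where TPM is a read share scaled for gene length and 0.01 is the lowest value listed, called the floor. Read numbers are not given, so the depth behind a value is unknown and its error is the spread between mice. Nodes and spleens carried their markers: summed B cell markers reached 1160 to 2370 TPM in day 23 nodes and at most 3.25 TPM in tumors, and erythroid markers 1140 to 2960 TPM in spleens. Epithelial markers did not set tumors apart, at 3.86 to 20.2 TPM against 2.7 to 410 TPM in day 23 nodes. Fibroblast markers overlapped as well, at 171 to 932 and 443 to 1490 TPM. Adipocyte markers ranged from 38.1 to 2400 TPM among the day 23 nodes. Exocrine pancreas markers ranged from 0 to 5650 TPM among the spleens. Of each library's TPM, 40.4 to 59.1% fell to genes that are not listed in spleens, against 13.5 to 17.8% in tumors. Of the 18 day 16 nodes, 3 stood apart from the other 15. The library labelled PD1/CYTO 22 was closer to the median tumor profile (r = 0.982 across genes) than to the median node (r = 0.873), and the B cell genes MS4A1 and PAX5 and the node venule gene GLYCAM1 were at the floor in it. The libraries labelled PD1 16 and TS/PD1/CYTO 34 had ADIPOQ, an adipocyte gene, at 10.64 and 10.34 against 3.71 to 8.85 in the others, with CD79A, part of the B cell receptor complex, at 5.32 and 4.13 against 8.83 to 9.54. Volume slopes, PD1 effects and day differences that rest on day 16 nodes are given with and without these 3 libraries. The CYTO and TS effects at day 16 and the tests of day by PD1, CYTO and TS are given only with them. In bulk RNA, fewer cells of a type and less RNA per cell cannot be told apart.

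The 9 genes differed in which tissue held most of their RNA. BATF2 was highest in tumors, with 2.63, 5.52 and 6.52 as the lowest, median and highest value over 18 tumors. Day 23 nodes had 1.00, 1.71 and 2.59, spleens had 0.01, 0.95 and 1.83, and 3 spleens were at the floor. No tumor fell within the range of the day 23 nodes or the spleens. UBD was highest in nodes, with 7.08, 7.59 and 8.06 in day 23 nodes, 1.42, 4.47 and 5.75 in tumors and 1.55, 3.69 and 5.25 in spleens. Every day 23 node was above every tumor and every spleen for UBD. In TPM, the median UBD level was 192 in day 23 nodes and 21.2 in tumors, while that of BATF2 was 2.28 and 44.9.

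**Figure D1:**
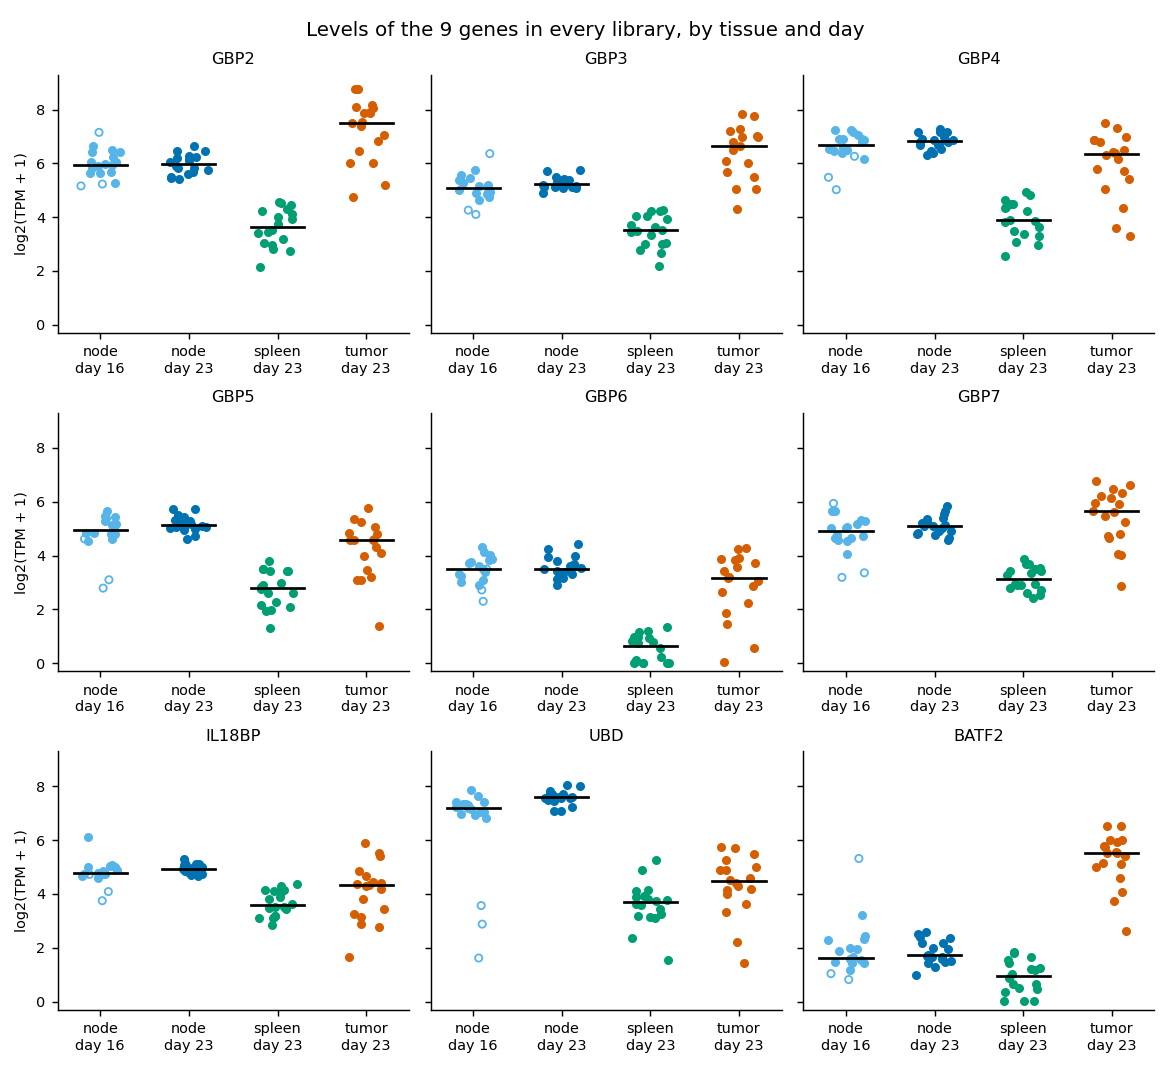
Each point is 1 library, in log2(TPM + 1), for 18 libraries of each tissue and day, and black lines are medians. Open circles are the 3 day 16 nodes that stood apart, 2 of them low for most genes and all 3 low for UBD. BATF2 is highest in tumors and UBD in nodes.

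Among the GBPs, GBP2 was the highest in tumors, with 4.76, 7.50 and 8.77 (lowest, median, highest of 18), against 5.40, 5.98 and 6.65 in day 23 nodes and 2.15, 3.65 and 4.55 in spleens. GBP3, which with GBP2 belongs to the mouse GBPs known from vacuoles of Toxoplasma, had 4.29, 6.63 and 7.83 in tumors and 4.88, 5.22 and 5.75 in day 23 nodes. For these genes and for GBP7, the median was highest in tumors, and the tumor range contained the whole node range. GBP4 led in nodes, with 6.30, 6.83 and 7.29 at day 23 against 3.28, 6.34 and 7.48 in tumors. GBP5, known in mice for promoting the NLRP3 inflammasome, had medians of 5.13 in day 23 nodes, 4.56 in tumors and 2.79 in spleens. GBP6 was the lowest of the family, with medians of 3.50, 3.18 and 0.66 in the same order, and 5 spleens were at the floor. IL18BP had the closest medians, with values of 4.92, 4.33 and 3.58. In TPM, tumor medians ran from 8.06 for GBP6 to 180 for GBP2. With day 16 nodes placed by their medians, neighbours in the order of each gene mostly had overlapping ranges. The exceptions were BATF2 between tumors and day 23 nodes and GBP2 between day 16 nodes and spleens. For BATF2, day 16 nodes reached 5.32, or 3.21 without the 3 that stood apart, both inside the tumor range. Without the 3 day 16 nodes that stood apart, GBP3 and GBP7 also had no overlap between day 16 nodes (from 4.65 and 4.04) and spleens (up to 4.27 and 3.89), nor UBD between day 16 nodes (from 6.84) and tumors (up to 5.75).

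Tissues were compared over the 6 arms in a linear model (limma) fitted to all genes of the 54 day 23 libraries, with p adjusted by the Benjamini-Hochberg method. Against nodes, 3 of the 9 genes were higher in tumors, where 29.4% of the 12761 genes tested were called higher, and 4 were lower, where 55.6% were. BATF2 was higher by 3.61 ± 0.22 log2 (SE), GBP2 by 1.35 ± 0.28 (adjusted p = 2.71e-05) and GBP3 by 1.21 ± 0.24. UBD was lower at -3.14 ± 0.30 (adjusted p = 2.59e-12), GBP5 at -0.77 ± 0.26, GBP4 at -0.74 ± 0.30 and IL18BP at -0.73 ± 0.25. GBP7 had 0.46 ± 0.25 (adjusted p = 0.0814) and GBP6 -0.56 ± 0.29 (adjusted p = 0.07). Quantile normalization moved the median of all genes from -0.35 to 0.04, called 4 members higher and 2 lower, and turned GBP6 to 0.09. The called genes then split into 5556 higher and 5242 lower, against 3751 and 7096 without it. The labels put 14 tumors in batch 3, which holds no other tissue, and the nodes and the 4 fresh-frozen tumors in batch 2, so that this contrast cannot be told apart from the batch. Within batch 2, the fresh-frozen tumors had BATF2 at 2.58 ± 0.38 and GBP3 at 0.74 ± 0.33 above nodes (both called). GBP2 had 0.80 ± 0.38 (adjusted p = 0.0617) and GBP7 -0.32 ± 0.36. A further 5 members were lower, UBD (-3.68 ± 0.37), GBP5, IL18BP, GBP4 and GBP6. The share of all genes called within batch 2 is not reported here. That fit was added after the data were seen, and preservation differs within it.

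Spleens had less of each of the 9 RNAs than nodes, at -0.93 for BATF2 to -3.99 for UBD, and 9 of 9 passed where 80.0% of all genes were called lower. The median of all genes was -0.92 there, and the median of the 9 was -2.35. Under quantile normalization the median of all genes was -0.05 and that of the members -1.48, with 7 called and BATF2 at 0.20, and all called genes split into 4460 higher and 5672 lower, against 1175 and 10215. Tumors had more than spleens for 9 of 9, from 0.55 ± 0.25 for IL18BP to 4.54 ± 0.22 for BATF2, where 56.1% of genes were called higher. IL18BP turned to -0.11 when the listed TPM of each library were rescaled to 1 sum, and 7 of 9 were then called. That scaling gave 4431 genes higher and 5209 lower and quantile normalization 5334 and 4787, against 7164 and 2930, with a median of all genes of 0.40 before and -0.01 and 0.01 after. GBP2 (3.71 ± 0.28), GBP3 (3.02 ± 0.24) and GBP6 (2.47 ± 0.29) followed BATF2 in size. All spleens and no other tissue carry the label batch 4, so that spleen and batch cannot be told apart.

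Expression in the tumors was set against tumor volume, which ran from 181 to 2198 mm3, to ask how far the 9 genes went with tumor size. Values were high and close together in small tumors and spread out in large ones. The 7 tumors under 1000 mm3 had GBP2 between 7.86 and 8.77, and the 11 larger ones between 4.76 and 8.04. For IL18BP the ranges were 4.36 to 5.89 and 1.66 to 4.46. BATF2 ran from 5.55 to 6.52 in the smaller tumors and from 2.63 to 5.99 in the larger. The limit of 1000 mm3 was set after these values were seen, and the ranges of the 2 sides overlapped for each of these genes. The spread on the larger side, 2.71 log2 for GBP3 to 3.86 for UBD, was above that on the smaller side, 0.91 for GBP2 to 1.53 for IL18BP.

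**Figure D2:**
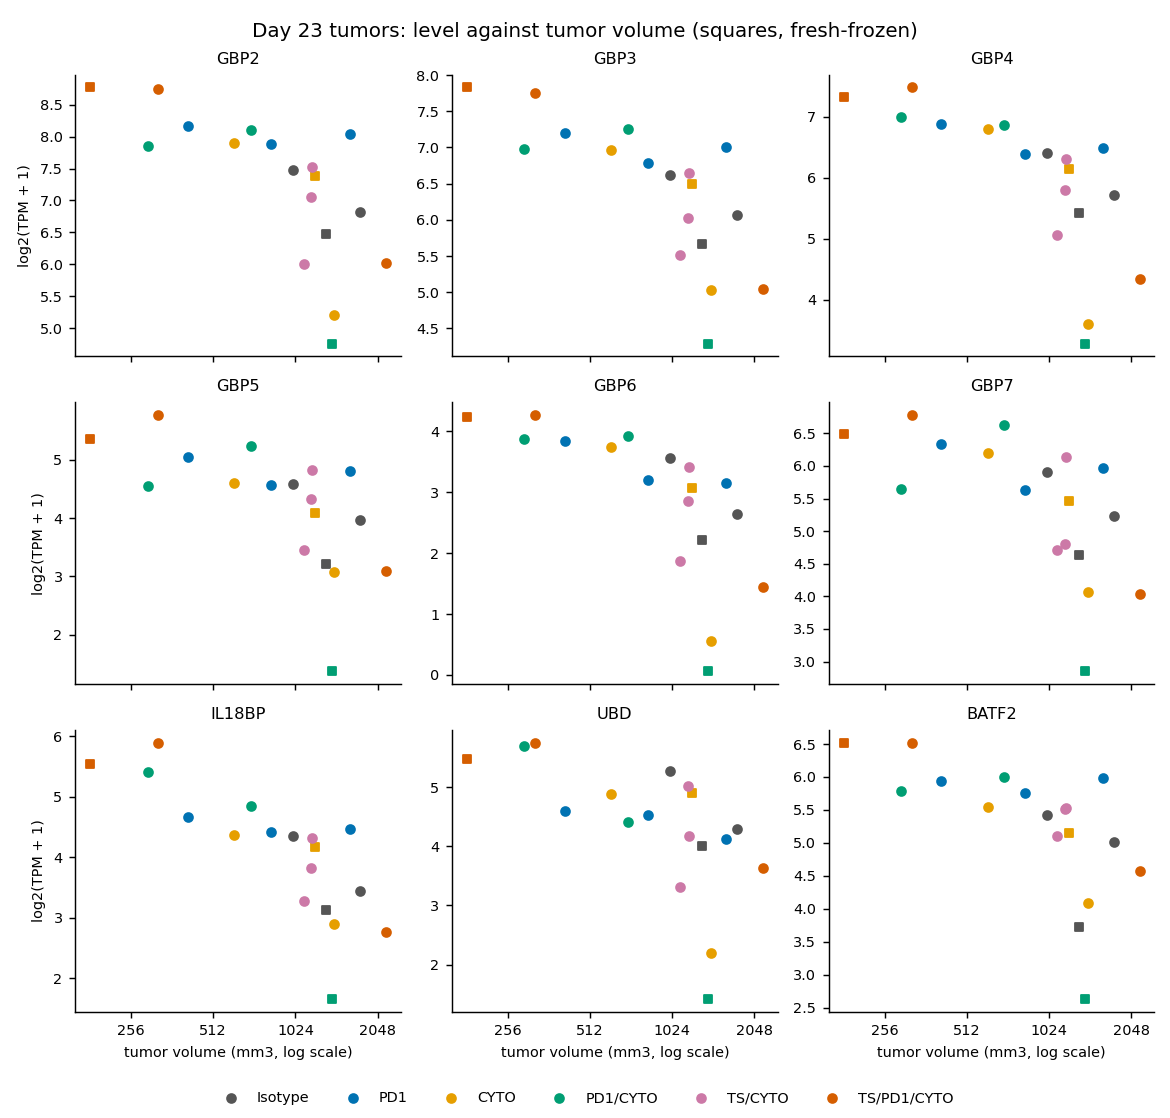
Points are the 18 day 23 tumors, with volume in mm3 on a log axis and log2(TPM + 1) on the vertical axis, colored by arm, and squares are the 4 fresh-frozen tumors. Tumors under 1000 mm3 lie in a narrower range than larger ones, and the lowest point of each panel is the PD1/CYTO tumor 32.

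The lowest tumor of all 9 genes was the fresh-frozen PD1/CYTO 32 of 1390 mm3, with GBP2 at 4.76, GBP6 at 0.06 and UBD at 1.42. CYTO 18, of 1417 mm3, was next for GBP2 (5.21), GBP6 (0.56) and UBD (2.2). PD1 30, at 1616 mm3, had GBP2 at 8.04 and BATF2 at 5.99, within the range of the small tumors. The highest GBP2 values were 8.77 in TS/PD1/CYTO 52, of 181 mm3, and 8.75 in TS/PD1/CYTO 60, of 321 mm3, while the remaining tumor of that arm, TS/PD1/CYTO 59 of 2198 mm3, had 6.02. Within this arm the largest tumor was the lowest for each of the 9 genes.

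With log2 volume and the fresh-frozen batch as terms, all 9 genes fell as volume rose, in limma with adjustment over 10913 genes. Among all genes tested, 10.7% were called lower and 0.275% higher, with a median slope of -0.12, against -0.74 for the 9. Per doubling of volume, GBP4 fell by 0.87 ± 0.19 log2 (SE, n = 18, adjusted p = 0.00588) and GBP6 by 0.86 ± 0.19 (adjusted p = 0.00765). GBP2 fell by 0.81 ± 0.18, GBP3 by 0.74 ± 0.14, GBP5 by 0.70 ± 0.16 and GBP7, which mice need for resistance to Toxoplasma, by 0.69 ± 0.17. Of the companions, IL18BP fell by 0.87 ± 0.14 (adjusted p = 0.00142), UBD by 0.72 ± 0.20 (adjusted p = 0.0275) and BATF2 by 0.65 ± 0.15 (adjusted p = 0.00729). In the 14 RNAlater tumors alone 9 of 9 passed, from -0.47 for BATF2 to -0.87 for GBP4, and with arm as a term 8 did, from -0.67 to -1.01, with UBD at adjusted p = 0.0512. Leaving out TS/PD1/CYTO 52, the smallest tumor, left 5 called, and without TS/PD1/CYTO 60 or 59 there were 7 or 8. Quantile normalization gave 8 members, and its calls over all genes were 259 higher and 524 lower, against 30 and 1166.

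Genes around the interferon-gamma signal fell in part, where 10.7% of all genes tested were called lower. Of the list of its ligand, receptor and signalling genes, 5 of 10 fell with volume, 0 rose, and the median slope was -0.35. IFNG itself fell by 0.66 ± 0.12 log2 per doubling (adjusted p = 0.00246), CIITA, the master regulator of class II genes, by 0.72 ± 0.13 and IRF1 by 0.49 ± 0.11. Of the interleukin 18 and inflammasome list, 7 of 10 tested fell, with IL18, the cytokine that IL18BP binds, at -0.44 ± 0.09, CASP1, which cleaves it, at -0.38 ± 0.08 and the adaptor PYCARD at -0.45 ± 0.08. Of the immunoproteasome and ubiquitin-like list 5 of 9 fell, among them PSMB8 (-0.53 ± 0.10) and the peptide transporter TAP1 (-0.45 ± 0.10). Of the BATF and IRF partners 2 of 4 fell, BATF3 at -0.53 ± 0.10 and BATF at -0.36 ± 0.07, and of the type I interferon list 7 of 10 fell, with IRF7 at -0.50 ± 0.08. The ubiquitin-like ISG15, which is in the immunoproteasome and the type I list, fell by 0.38 ± 0.07. Mouse-specific relatives such as Irgm1 and Gbp2b are not in the table under those symbols and were not analysed here.

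Markers of immune cells moved with volume as well, where 10.7% of all genes tested were called lower. Of 6 T cell markers 5 fell, with a median slope of -0.64, and of 6 macrophage markers 5 fell, with a median of -0.48. Summed T cell markers were 42.1 to 93.2 TPM in the 7 tumors under 1000 mm3 and 0.753 to 49.2 TPM in the other 11, and macrophage markers 650 to 1510 and 454 to 857 TPM. Of the NK cell markers, 2 of 5 are listed and 1 fell, and of the B cell markers 1 of 3 tested fell. RNA integrity numbers were 5.1 to 7.8 (median 6.9) in the smaller and 4.5 to 7.8 (median 5.6) in the larger tumors. With RNA integrity as a covariate 8 of the 9 genes were called, and the share of all genes called in that fit is not reported here. The part of cell content in the slopes was not tested.

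The 9 genes varied together in tumors. Over 18 tumors, which share arms and the range of volume, the 36 pairs of members had r between 0.80 and 0.99, with a median of 0.95, and UBD had the lowest pairs. Among the 5 genes most like the mean of the 9 were the apolipoprotein L gene APOL6 (r = 0.978), CD74, the invariant chain of class II molecules (0.973), the immunoglobulin heavy chain gene IGHM (0.973) and IRF1 (0.973), of 9445 genes compared. In spleens the pairs had r from 0.53 to 0.99, again lowest for UBD, and MDFIC (0.987), IRF1, MXD4, SKIL and ENTPD1 were the most similar genes. Spleens also share the unlisted part of TPM, so these correlations are descriptions of 18 libraries.

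Spleens were then compared with the volume of the tumor that the same mouse carried, from 29 to 2198 mm3. Most of the 9 genes fell with volume, and the calls depended on single spleens. UBD had 1.55, 3.69 and 5.25 (lowest, median, highest of 18), with the highest value in PD1/CYTO 40, whose tumor of 29 mm3 was the smallest, and the lowest in TS/PD1/CYTO 59 with the largest. GBP2 had 2.15, 3.65 and 4.55, and GBP4 2.57, 3.88 and 4.94, with the extremes in the same 2 mice. The spleen of TS/PD1/CYTO 60 departed from this order: its GBP2 was 2.82 and its UBD 2.38 although the tumor measured 321 mm3, and that tumor held GBP2 at 8.75. Spleens of mice with tumors under 1000 mm3 (n = 8) had GBP2 from 2.82 to 4.55 and the others (n = 10) from 2.15 to 3.94, so the ranges overlapped.

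**Figure D3:**
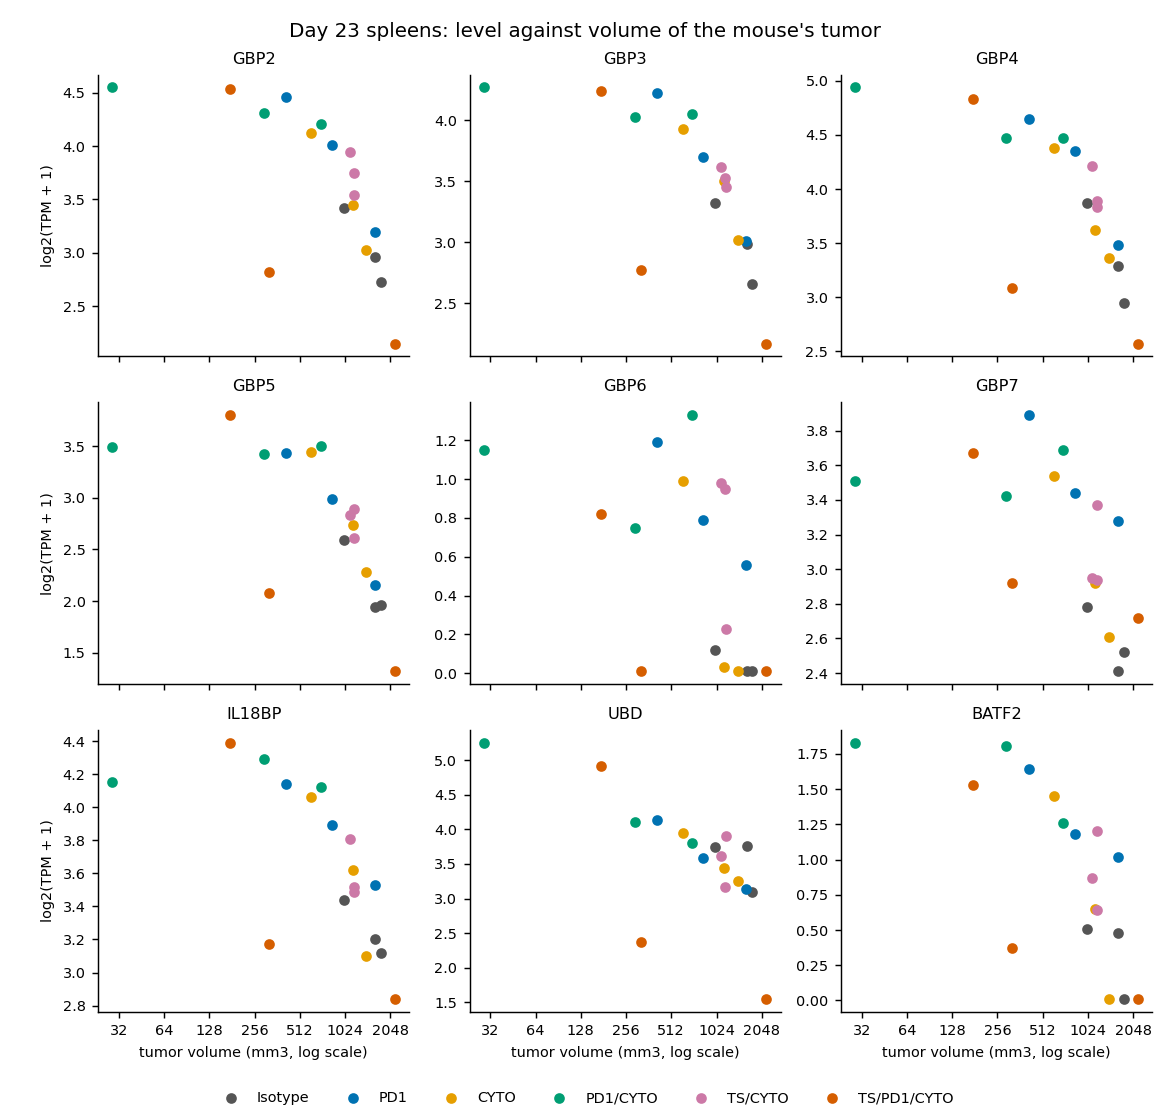
Points are the 18 day 23 spleens, colored by arm, with the volume in mm3 of the mouse's own tumor on a log axis and log2(TPM + 1) on the vertical axis. Levels are lower toward large volumes, and the spleen of TS/PD1/CYTO 60, at 321 mm3, lies low with GBP2 at 2.82 and UBD at 2.38.

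In limma 8 of 9 genes fell with volume in spleens, where 35.2% of 11184 genes were called lower and 4.56% higher. UBD fell by 0.38 ± 0.09 log2 per doubling (SE, n = 18), GBP2 and GBP4 by 0.31 ± 0.08, GBP5 by 0.30 ± 0.08, BATF2 by 0.28 ± 0.07 and GBP3 by 0.27 ± 0.07. IL18BP fell by 0.20 ± 0.06 and GBP7 by 0.17 ± 0.06, each of the 8 with an adjusted p of 0.0399. GBP6 had -0.17 ± 0.07 (adjusted p = 0.0504). The calls sat close to the threshold. With arm as a term 0 of 9 passed (smallest adjusted p 0.0533, for UBD), while the slopes ran from -0.50 for UBD to -0.12, with GBP2 and GBP4 at -0.33. Also 0 of 9 passed with rescaled TPM (0.0502) or without the filter on low genes, and 0 passed without any single one of 8 spleens. These were Isotype 08 and 10, CYTO 18, PD1 29 and 30, PD1/CYTO 38, and TS/PD1/CYTO 58 and 59. Quantile normalization called 7 members and split all called genes into 1125 higher and 923 lower, against 510 and 3932.

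Interferon-gamma signalling genes fell in spleens as well, where 35.2% of all genes tested were called lower and 4.56% higher. Of the interferon-gamma signalling list 8 of 9 tested fell, with IRF1 at -0.28 ± 0.07, and of the immunoproteasome list 8 of 9, with PSMB9 at -0.21 ± 0.06. Of the interleukin 18 list 6 of 11 fell and of the BATF and IRF partners 4 of 5. In the type I interferon list 1 of 10 fell (IFIT3, -0.24 ± 0.09), and ISG15 had 0.15 ± 0.06 (adjusted p = 0.0543). Erythroid markers rose for 5 of 5, with a median slope of 0.19, and B cell (5 of 6), T cell (3 of 6) and macrophage (6 of 6) markers fell. With rescaled TPM, without the filter or with arm as a term, 0 genes were called with volume in spleens, and each of these counts was 0. The part of these shifts in the member slopes was not tested.

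None of the 9 genes was called with volume in draining nodes at either day. In day 23 nodes the slopes of the 9 genes ran from -0.12 ± 0.06 for BATF2 to -0.00 ± 0.04 for UBD. Of the 9, 0 were called, as were 0% of 12203 genes. In limma 1 member had an unadjusted p under 0.05, where 2.88% of genes had. In day 16 nodes, where tumors measured 119 to 681 mm3, 0 of 9 were called and 0% of 12480 genes. In limma 0 members had an unadjusted p under 0.05, where 4.98% of genes had. BATF2 had 0.51 ± 0.33 there and -0.20 ± 0.20 without the 3 nodes that stood apart. Without those 3 nodes the median slope of the 9 went from -0.05 to -0.28, GBP7 had -0.41 ± 0.14 (adjusted p = 0.0678), and 0 of 9 were called, 4 had an unadjusted p under 0.05, as did 29.6% of genes, and 710 genes were called higher and 207 lower. This exclusion was chosen after the marker values were seen.

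**Figure D4:**
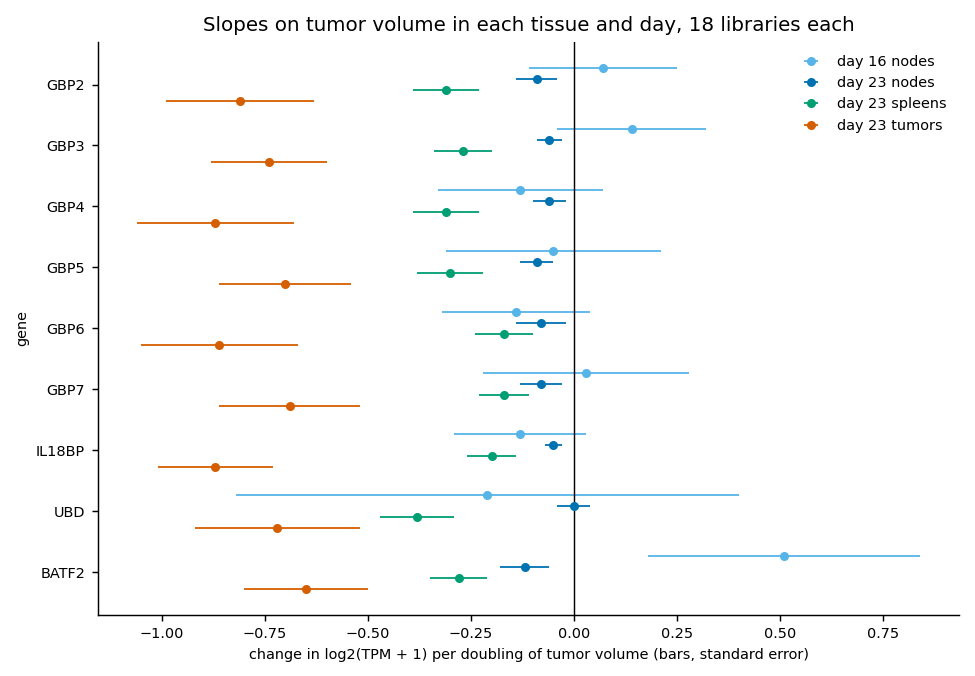
Points are limma slopes in log2(TPM + 1) per doubling of tumor volume and bars are standard errors, for 18 libraries of each tissue and day. Tumor slopes lie between -0.87 and -0.65, spleen slopes between -0.38 and -0.17, and day 23 node slopes within 0.12 of 0.

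The difference between these slopes was tested in a single model of the 54 day 23 libraries. The slope was more negative in tumors than in nodes for 9 of 9 genes, by -0.53 ± 0.15 for BATF2 to -0.82 ± 0.17 for GBP4, where 12% of 12761 genes were called in that direction. Adjusted p ranged from 1.14e-05 for IL18BP to 0.013 for BATF2. Against spleens 6 of 9 were called, IL18BP (-0.67 ± 0.12), GBP6 (-0.70 ± 0.17), GBP4, GBP7, GBP3 and GBP2, where 8.20% of genes were. UBD (-0.34 ± 0.18, adjusted p = 0.235), BATF2 (-0.37 ± 0.15, adjusted p = 0.0906) and GBP5 (-0.40 ± 0.15, adjusted p = 0.0865) did not pass. Between spleens and nodes 0 of 9 were called, with 0.0705% of genes lower. In limma 2 members had an unadjusted p under 0.05 there, where 28.7% of genes had. Without the spleen of TS/PD1/CYTO 60 or PD1/CYTO 40, 1 or 2 members were called. Quantile normalization called 8 members against nodes and 7 against spleens, and all called genes then split into 518 higher and 573 lower, and 812 and 785, in place of 95 and 1529, and 239 and 1046.

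These tests treat libraries of the same mouse as independent. With the mouse as a replicate block, which compares tissues within mice, 1 of 9 was called between tumor and node, IL18BP at -0.76 ± 0.17 (adjusted p = 0.0406), and 0 of 9 between tumor and spleen. The blocked differences from the node were -0.80 ± 0.24 for GBP4 and -0.76 ± 0.23 for GBP6 (adjusted p = 0.098 and 0.0922), while that of BATF2 was -0.36 ± 0.21. The 4 fresh-frozen tumors have no node or spleen of the same mouse and add nothing to the blocked differences. In the 14 RNAlater tumors without the block, 8 and 4 members were called against nodes and spleens. Without the node of PD1/CYTO 40, 6 members were called against nodes. Without the spleen of that mouse or the tumor TS/PD1/CYTO 59, 2 were called against spleens, and without TS/PD1/CYTO 52, 3.

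Treatment arms were compared within each tissue to ask whether PD1, CYTO or TS shifted the 9 genes. In tumors 0 of 9 were called for any of the 3, and 0% of the 10913 genes were. In limma 0 members had an unadjusted p under 0.05 for any of them, where 0.898% to 4.78% of genes had. The same held for each arm against Isotype, where 1.21% to 13.8% of genes had. The PD1 effect, averaged over 3 matched pairs of arms, ran from 0.17 ± 0.53 for UBD to 0.72 ± 0.51 for GBP2 (adjusted p = 0.666 in limma), all 9 positive, beside a median of 0.14 over all genes. With tumor volume as a covariate it ran from -0.54 to 0.01. The CYTO effect ran from -0.54 to -0.09 and the TS effect from 0.23 to 0.62. For IL18BP the tumors of an arm spanned 1.04 (TS/CYTO) to 3.74 log2 (PD1/CYTO), except those of PD1, which spanned 0.26. The 3 TS/PD1/CYTO tumors had IL18BP at 5.54, 2.76 and 5.89, and the 3 Isotype tumors 3.13, 4.35 and 3.45. In the PD1 arm GBP2 was 7.88, 8.16 and 8.04, above the Isotype values of 6.47, 7.48 and 6.82. Of the 9 genes, 4 had all PD1 tumors above all Isotype tumors, as did 35% of all genes, and 0 of 9 were called.

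In spleens PD1/CYTO was the arm with called members. BATF2 was 1.81, 1.26 and 1.83 in the 3 PD1/CYTO spleens and 0.48, 0.51 and 0.01 in the Isotype spleens. GBP6 was 0.75, 1.33 and 1.15 against 0.01, 0.12 and 0.01, and IL18BP 4.29, 4.12 and 4.15 against 3.20, 3.44 and 3.12. All PD1/CYTO spleens were above all Isotype spleens for 9 of 9 genes, and for 61.4% of all genes tested. In limma 4 of 9 were called, all higher, where 25.5% of 11184 genes were called and 25.4% were higher: BATF2 by 1.3 ± 0.39, GBP6 by 1.03 ± 0.30, GBP7 by 0.97 ± 0.27 (adjusted p = 0.0469 each) and IL18BP by 0.93 ± 0.32 (adjusted p = 0.0484). GBP2, GBP3, GBP4 and GBP5 had 1.13 to 1.32 with adjusted p from 0.0506 to 0.0542, and UBD 0.85 ± 0.63 (adjusted p = 0.261). The median of all genes was 0.54, and under quantile normalization it was 0.01, the members' median went from 1.13 to 0.54, 0 members were called, and 0 genes were called higher and 2 lower, against 2840 and 12.

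The same 0 came with rescaled TPM, without the filter and with RNA integrity or tumor volume as a covariate, where the differences ran from -0.63 for UBD to 0.68 with volume. The stricter filter left out GBP5, GBP6, GBP7 and BATF2, and of the 5 members it tested 0 were called. Leaving out 1 library gave 0 calls for 11 spleens, which were Isotype 08 and 10, CYTO 19, PD1 28 and 29, PD1/CYTO 38 and 39, TS/CYTO 48, 49 and 50, and TS/PD1/CYTO 60. It gave 2 calls without PD1/CYTO 40 and 8 without CYTO 18 or 20 or the TS/PD1/CYTO spleens 58 or 59. The shares of all genes called in these fits are not reported here. The PD1/CYTO mice also had the smaller tumors, 29 to 702 mm3 against 1002 to 1772 mm3. Exocrine pancreas markers summed to 24.1 to 4790 TPM in the Isotype and 0 to 29.1 TPM in the PD1/CYTO spleens, and unlisted genes took 48.5 to 55% and 42.0 to 44.3% of TPM. Summed B cell markers were 582 to 982 TPM in the Isotype and 1280 to 1650 TPM in the PD1/CYTO spleens, macrophage markers 391 to 638 and 761 to 901 TPM, dendritic cell markers 18.5 to 28 and 37.7 to 52.4 TPM, and neutrophil markers 2330 to 3050 and 979 to 1740 TPM, none of them overlapping. NK cell (5.16 to 11.4 and 11.8 to 16.1 TPM), endothelial (20.8 to 39.9 and 57.9 to 73.6 TPM) and fibroblast markers (34.6 to 52.8 and 65.1 to 126 TPM) did not overlap either. T cell markers, at 132 to 264 and 254 to 381 TPM, overlapped. The part of these values in the difference was not tested. In the other 4 arms 0 of 9 were called against Isotype, where 0.00894% of genes were called lower in TS/PD1/CYTO and 0% in the rest, although 7 members in TS/CYTO and 4 in PD1 had all spleens above the Isotype spleens, as did 41.3% and 33.1% of all genes. In limma 1 and 3 members of these arms had an unadjusted p under 0.05, where 9.71% and 15.7% of genes had. For PD1, CYTO and TS as averaged effects, 0 of 9 were called in spleens and 0% of genes, with 2, 0 and 0 members at an unadjusted p under 0.05 (8.42%, 22.2% and 1.66% of genes), and with TS effects of -0.71 to -0.19. Without the spleen TS/PD1/CYTO 58, 6 members were called for TS, and the share of all genes called in that fit is not reported here. With all spleens the median TS effect over all genes was -0.17. The pairs of arms behind the TS effect differed. Mean GBP2 was 3.17 in TS/PD1/CYTO and 4.36 in PD1/CYTO, but 3.74 in TS/CYTO and 3.53 in CYTO. For UBD the means were 2.95 and 4.39, but 3.56 and 3.54. Only GBP5 had a lower mean in TS/CYTO than in CYTO (2.78 against 2.82).

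Nodes by arm are the clearest view of the day 16 libraries that stood apart. UBD was 7.43 and 7.43 in 2 PD1 nodes and 3.57 in PD1 16, 6.84 and 7.86 in 2 PD1/CYTO nodes and 2.88 in PD1/CYTO 22, and 7.19 and 7.65 in 2 TS/PD1/CYTO nodes and 1.62 in TS/PD1/CYTO 34. The 15 other day 16 nodes had UBD between 6.84 and 7.86. BATF2 was 5.32 in PD1/CYTO 22, inside the range of tumors, and 0.82 to 3.21 in the rest. GBP2 (7.15), GBP3 (6.36) and GBP7 (5.94) were also higher in that library than in any other day 16 node, while its GBP4 (6.26) and IL18BP (4.73) lay within the range of the other 15.

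**Figure D5:**
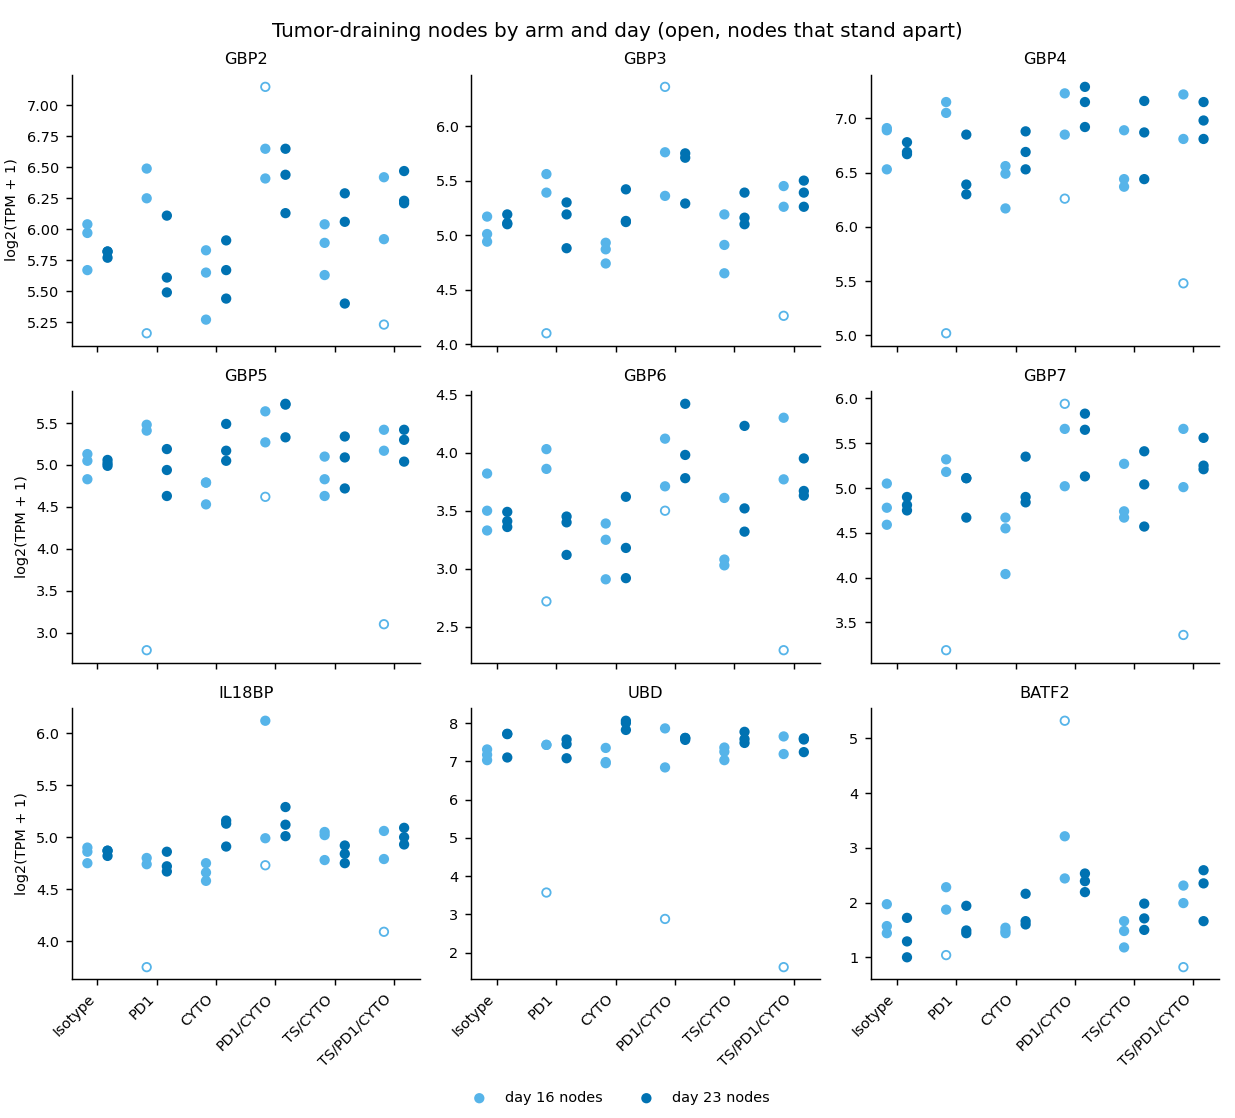
Each point is 1 node library in log2(TPM + 1), by arm, with day 16 in light and day 23 in dark blue and 3 libraries per arm and day. Open circles are PD1 16, PD1/CYTO 22 and TS/PD1/CYTO 34, which hold the 3 lowest UBD values, and the PD1/CYTO nodes of day 23 lie above Isotype for 8 of 9 genes, as do 9.71% of all genes.

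In day 16 nodes 0 of 9 genes were called for PD1, CYTO or TS, and 0% of 12480 genes. In limma 1, 0 and 1 members had an unadjusted p under 0.05, where 7.25%, 0.657% and 1.11% of genes had. The PD1 effect on UBD was -1.33 ± 0.86 with all libraries and 0.24 ± 0.14 without the 3. That on GBP5 went from -0.09 ± 0.37 to 0.55 ± 0.09 (adjusted p = 0.0597) and that on GBP3 from 0.34 ± 0.22 to 0.53 ± 0.09 (adjusted p = 0.0685). Without the 3 nodes all 9 genes had a positive PD1 effect, 0.24 to 0.82, and 0 were called in limma, with 7 at an unadjusted p under 0.05, where 16.0% of genes were. In PD1/CYTO against Isotype, BATF2 was 3.21 and 2.44 in the nodes that remained, beside 1.44, 1.57 and 1.97, a difference of 1.17 ± 0.26 (adjusted p = 0.192). With PD1/CYTO 22, at 5.32, among all 18 libraries the difference was 2.00 ± 0.59 (adjusted p = 0.671).

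In day 23 nodes 8 of the 9 genes had all 3 PD1/CYTO values above the Isotype values, where 9.71% of all genes did. BATF2 was 2.53, 2.39 and 2.19 against 1.72, 1.29 and 1.00, and GBP5 5.73, 5.72 and 5.33 against 5.06, 5.02 and 4.99. GBP7 was 5.65, 5.83 and 5.13 against 4.75, 4.90 and 4.81. UBD had 7.56, 7.61 and 7.61 against 7.71, 7.10 and 7.72 and overlapped. For the other 8 genes the arms did not overlap, but 0 of 9 were called, where 0.00819% of 12203 genes were called higher. BATF2 had 1.03 ± 0.25 (adjusted p = 0.743), GBP7 0.72 ± 0.21 and GBP6 0.64 ± 0.22, and 8 members had an unadjusted p under 0.05, where 3.42% of genes had. Macrophage markers summed to 453 to 588 TPM in these nodes against 367 to 419 TPM in Isotype and NK cell markers, of which 2 are listed, to 27.3 to 35.2 against 22.9 to 25.3 TPM, neither overlapping. B cell markers overlapped, at 1960 to 2310 against 1960 to 2290 TPM, and the part of these values was not tested. RNA integrity numbers were 5.9 to 7.1 in the PD1/CYTO nodes and 7.4 to 7.9 in the Isotype nodes. Tumors of these mice measured 29 to 702 against 1002 to 1772 mm3. Neither measure overlapped, and the differences with these measures as covariates are not reported here. Against Isotype 0 of 9 were also called in PD1, where 0.0492% of genes were, and in TS/PD1/CYTO, where 0.00819% were called lower and 6 members had all nodes above Isotype, where 5.02% of all genes did. Macrophage markers were 530 to 854 TPM and NK cell markers 25.5 to 35.7 TPM in the TS/PD1/CYTO nodes, both above Isotype without overlap. B cell markers, at 1160 to 1750 TPM, were below Isotype without overlap, and T cell markers (995 to 1400 against 1150 to 1210 TPM) overlapped. The part of these values was not tested either. RNA integrity was lower in every TS/PD1/CYTO node than in every Isotype node, while the tumor volumes of these arms overlapped. For the averaged effects 0 of 9 were called as well, where 0.0164% of genes were for PD1, 0.0656% for CYTO and 0.00819% for TS in either direction. In limma 5, 7 and 2 members had an unadjusted p under 0.05, where 18.1%, 20.8% and 9.43% of genes had. Of the 5 for PD1, BATF2, GBP2, GBP3 and GBP7 were positive and UBD was negative (-0.22 ± 0.09). The CYTO effect, a mean over 2 pairs of arms, was positive for 9 of 9, from 0.27 for GBP2 to 0.61 ± 0.18 for BATF2. The smallest adjusted p was 0.0698 in limma (IL18BP, 0.30 ± 0.06). The pairs differed for some members. Mean GBP2 was 6.41 in PD1/CYTO and 5.74 in PD1, but 5.67 in CYTO and 5.8 in Isotype. Mean GBP6 was 4.06 and 3.32, but 3.24 and 3.42, and GBP4 was level in CYTO and Isotype (6.7 and 6.71). The remaining members had higher means in CYTO than in Isotype.

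Between day 16 and day 23, nodes differed by less than could be called for the members. UBD was 1.62, 7.18 and 7.86 (lowest, median, highest) at day 16 and 7.08, 7.59 and 8.06 at day 23, a difference of 1.09 ± 0.45 log2 (adjusted p = 0.225) that became 0.31 ± 0.09 (adjusted p = 0.0562) without the 3 nodes. The other 8 genes had differences of -0.10 to 0.37, and of -0.10 to 0.11 without the 3, where 0 of 9 members were called and 14 genes higher and 241 lower. For day, 0 of 9 members and 0% of 12596 genes were called, and for day by PD1, CYTO and TS 0 of 9, where 0.0556% of genes were called for PD1. In limma 1 member had an unadjusted p under 0.05 for day, where 17.7% of genes had. For day by PD1, CYTO and TS 0 members had, where 1.53%, 2.11% and 1.72% of genes had. The r of UBD with the other members ran from -0.14 to 0.41 over the 18 day 23 nodes, while the other 28 pairs had a median of 0.79. Over all 18 day 16 nodes, which include the 3 that were low in UBD, it ran from -0.15 to 0.79 beside a median of 0.76, and over the other 15 from -0.14 to 0.20 beside 0.88. YWHAH (r = 0.918), SLC7A11, KPNA4 and PSMB9 were among the 5 genes most like the mean of the 9 in day 23 nodes. In day 16 nodes without the 3 these included CXCL9 (0.96), a chemokine for T cells induced by interferon-gamma, PLAC8, CCL4 and IRGM. With all 18 day 16 nodes CXCL9 (0.96) ranked first as well.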

How the data were processed

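RNA sequencing of BALB/c mouse tissues was analysed from 1 table of the series. The authors deposited log2 values of TPM plus 1 for each gene and library. Per the submitters' processing notes, bcl2fastq 2.20, STAR and RSEM 1.3.0 were used with mm10, and the annotation release is not given in the sources used here. The table holds 16835 genes, 72 libraries and no read counts, so depth and counting error are unknown. TPM divide by all RNA of a library, so a change in abundant RNAs moves every other value.

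Genes above the floor of 0.01 in at least 3 fitted libraries were tested with limma 3.58.1 (R 4.3.3, trend and robust moderation), with Benjamini-Hochberg adjustment over all tested genes of a comparison and a limit of 5%. The 4 fresh-frozen tumors, which share the label batch 2 with the nodes, had a term of their own, so tumors were compared at the level of batch 3, nodes at batch 2 and spleens at batch 4. Volume entered as log2, so a slope is the change per doubling. Effects of PD1 were means over 3 pairs of arms and those of CYTO and TS over 2. The same mouse gave day 23 tissues under the same number, which pairs the libraries, and the median correlation of deviations within a mouse was 0.036 (tumor and node), -0.037 (spleen and node) and 0.022 (tumor and spleen). The fits were tested on simulated data. Pathway, marker and motif lists and the 9 members were chosen with earlier results of these data known. Named are the 9 members, up to 3 genes of smallest p per pathway list, and the 5 other genes most correlated with the members' mean in each tissue and day. Some genes that this rule names are not reported here. MS4A1, PAX5, CD79A, GLYCAM1 and ADIPOQ were named after their values were seen. Whether mice of an arm were housed or treated together is not stated. In the main fits of arm, day and tissue, p-values rest on the spread between libraries within groups. That spread is pooled over all groups of a fit and moderated across genes. For volume slopes they rest on the scatter of libraries around the fitted line, moderated in the same way. Alternatives were quantile normalization, rescaling, other filters, a pseudocount of 0.1, covariates, the mouse as a block and each library left out.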

Additional observations from a re-analysis of the deposited data

Results flagged for a closer look

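Slopes on tumor volume differed between tissues by a test of the difference itself for the following genes, in log2(TPM + 1) per doubling over 54 day 23 libraries. Between tumor and node the differences were -0.82 for GBP4, -0.81 for IL18BP, -0.79 for GBP6, -0.72 for GBP2, -0.72 for UBD, -0.69 for GBP3, -0.62 for GBP7, -0.61 for GBP5 and -0.53 for BATF2. Between tumor and spleen they were -0.70 for GBP6, -0.67 for IL18BP, -0.56 for GBP4, -0.52 for GBP7, -0.50 for GBP2 and -0.47 for GBP3. With the mouse as a replicate block, IL18BP remained called against nodes and 0 of 9 genes against spleens. GBP5, UBD and BATF2 did not pass between tumor and spleen.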

How the results depend on the processing

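Named member values, 101 in all, were recomputed 4271 times: 9 genes in each of the 8 comparisons with calls, and the others among effects, arms, day and node slopes. Of these 3946 kept direction and call, 247 lost a call, 46 gained one and 32 reversed. Over every member and comparison, 2 of 61 called and 198 of 353 uncalled values changed sign under some alternative. Reversed were GBP6 tumor against node (0.09) and BATF2 spleen against node (0.20) under quantile normalization, GBP7 tumor against node (-0.32) within batch 2, IL18BP tumor against spleen (-0.11) with rescaled TPM, and, with tumor volume as a covariate, UBD in PD1/CYTO spleens (-0.63) and IL18BP in TS/PD1/CYTO tumors (-0.18) against Isotype and the PD1 effect on UBD in tumors (-0.54, and -0.00 with RNA integrity). Without the 3 day 16 nodes the PD1 effects on UBD (0.24) and GBP5 (0.55, and 0.32 with RNA integrity) and the day 16 slopes of BATF2 (-0.20) and GBP7 (-0.41) reversed. In day 23 nodes the slope of BATF2 was 0.04 with arm as a term, and that of UBD, near 0, was 0.01 under quantile normalization and 0.00 with rescaled TPM. Without 1 library the PD1 effect on UBD in tumors ran from -0.18 to 0.63, that on GBP5 in day 16 nodes from -0.24 to 0.21, the day 16 slopes of BATF2 from -0.10 to 0.87 and of GBP7 from -0.21 to 0.20, and the day 23 node slope of UBD from -0.01 to 0.02. The number of members called with volume in spleens was 0 with rescaled TPM, without a filter and with arm as a term, and 5 with the stricter filter, which tested only 5. Calls against Isotype in spleens were 0 under quantile normalization, rescaling, no filter, RNA integrity or volume as a covariate, and under the stricter filter, which tested only 5 members. With the mouse as a replicate block, slope differences were called for 1 member between tumor and node and 0 between tumor and spleen, and the block changed no other count of members called. Leaving out 1 library gave 5 to 9 members for volume in tumors, 0 to 9 in spleens, 0 to 6 for TS in spleens, 0 to 8 against Isotype in spleens, and 2 to 8, 6 to 9 and 0 to 2 for the slope differences of tumor and spleen, tumor and node, and spleen and node. The shares of all genes called in the fits without 1 library are not reported here. Over all genes, calls for volume in tumors were 9 higher and 477 lower with the stricter filter, 13 and 437 with arm as a term and 259 and 524 under quantile normalization, against 30 and 1166, and in spleens 0 and 0 with rescaled TPM and 648 and 4895 with RNA integrity as a covariate, against 510 and 3932. Causes were not tested. Read depth is unknown, 3 mice per arm limit the arm comparisons, and reads of related GBPs may be shared.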
